A study of Danio rerio with 6 samples.

Results

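Immediate early genes are the first genes that cells transcribe after a growth signal, neuronal activity, injury or stress, because the factors that switch them on are already present and need no new protein. Many of them encode transcription factors, such as the Fos and Jun proteins that pair to form AP-1, the Egr zinc finger proteins, the Nr4a orphan nuclear receptors and the Klf proteins. Others encode secreted matrix proteins or proteins that end the signal. The set was taken by gene name, and all 35 names were found once each among the 38157 genes of the table.

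The study sequenced poly-A RNA from tails, with their blood-forming tissue, of zebrafish larvae at 3 days post fertilisation, and asked how loss of sirt6 changes gene expression. The groups were sirt6 mutants (3 libraries), from a line made with CRISPR/Cas9, and wild type (3 libraries), sorted by genotyping before RNA extraction. The allele, its zygosity, the number of larvae per library and the background strain are not stated in the sources used here. Levels are FPKM, in which fragments are divided by gene length and by a library size. This is meant to make them comparable between genes and between libraries.

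The libraries held 12438359 to 14655293 reads in genes. The library size implied by the FPKM was 0.952 times these reads in mutant library 2 and 0.955 times in wild-type library 1. In the other libraries it was 1.02 to 1.06 times, so the FPKM carry a scaling that no source used here states. Comparison between libraries rests on that scaling. Wild-type libraries 2 and 3 lay close together (chi-square per gene 2.88 on recovered reads), as did mutant libraries 1 and 3 (3.45), whereas the other 13 pairs gave 15.2 to 37.9. Wild-type library 1 and mutant library 2 thus stood apart from the rest of their groups. Wild-type library 1 was nearer to each mutant library (15.2 to 26.8) than to wild-type libraries 2 and 3 (37.1 and 37.9). The targeted gene sirt6 averaged 3.32 ± 0.251 FPKM in mutants and 3.85 ± 1.78 FPKM in wild type (SD, n = 3 each, exact two-sided permutation p = 0.9, where 0.1 is the smallest possible), and the position of its lesion is not given, so its level does not check the labels. All 8 Hox genes fixed as marks of the tail were detected, with a summed level of 27.8 to 35.8 FPKM in mutant libraries and 32.9 to 40.3 FPKM in wild-type libraries. Of these 8 genes, 7 had lower means in mutants and 1 had a higher mean. All 12 genes fixed as marks of retina and lens were detected too, with a summed level of 2097 to 2595 FPKM in mutant libraries and 1589 to 2094 FPKM in wild-type libraries, so the tissue labelled tail held transcripts of eye genes.

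All 35 immediate early genes passed the filter of a mean of at least 0.5 FPKM, and their levels spanned a wide range. In the mean of the 6 libraries 13 genes stood at 10 FPKM or more, 10 between 5 and 10, 11 between 1 and 5, and 1, fosb, under 1. The order was led by jun at 49.95 FPKM, followed by klf6a at 34.7, btg2 at 34.3, junbb at 34.2 and dusp1 at 33.2, and these last 4 did not differ beyond the spread between libraries. At the low end were egr2a at 1.003 FPKM and fosb at 0.681 FPKM. Reads per gene and library ran from 18 to 1955, and 25 of the 35 genes had at least 100 reads in every library. The other 10 genes had fewer reads in at least 1 library, so counting adds to their spread, by an amount that was not tested.

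The mean was higher in mutants for 27 of the 35 genes and lower for 8, against 11937 higher of all 23855 genes tested, and no gene passed the test. With limma across all genes 0 of 35 passed at an adjusted p of 0.05, as did 0.0% of all 23855 genes tested in either direction. The unadjusted p was under 0.05 for 5 genes, egr1, nr4a1, junbb, ccn2a and jun, all higher in mutants, against 2.45% of all genes tested (585 of 23855). It was so for 0 of the 35 on the lower side, against 3.28% of all genes tested (783 of 23855). On recovered reads, limma voom gave the same counts for the set, 0 genes at an adjusted p and 5 at an unadjusted p. Mutant and wild-type libraries were fully apart for 6 genes, egr1, egr2b, junbb, nr4a1, nr4a3 and ccn2a, each higher in mutants, against 5.16% of all genes tested (1231 of 23855) in that direction. For 0 of the 35 all mutant libraries were lower, against 5.4% of all genes tested (1287 of 23855). The median log2 fold change, mutant over wild type on log2(FPKM + 0.5), was 0.17 over the 35 genes and 0.00 over all genes tested. In tails, which hold many cell types, more transcript per cell and more cells that carry it cannot be told apart.

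**Figure D1:**
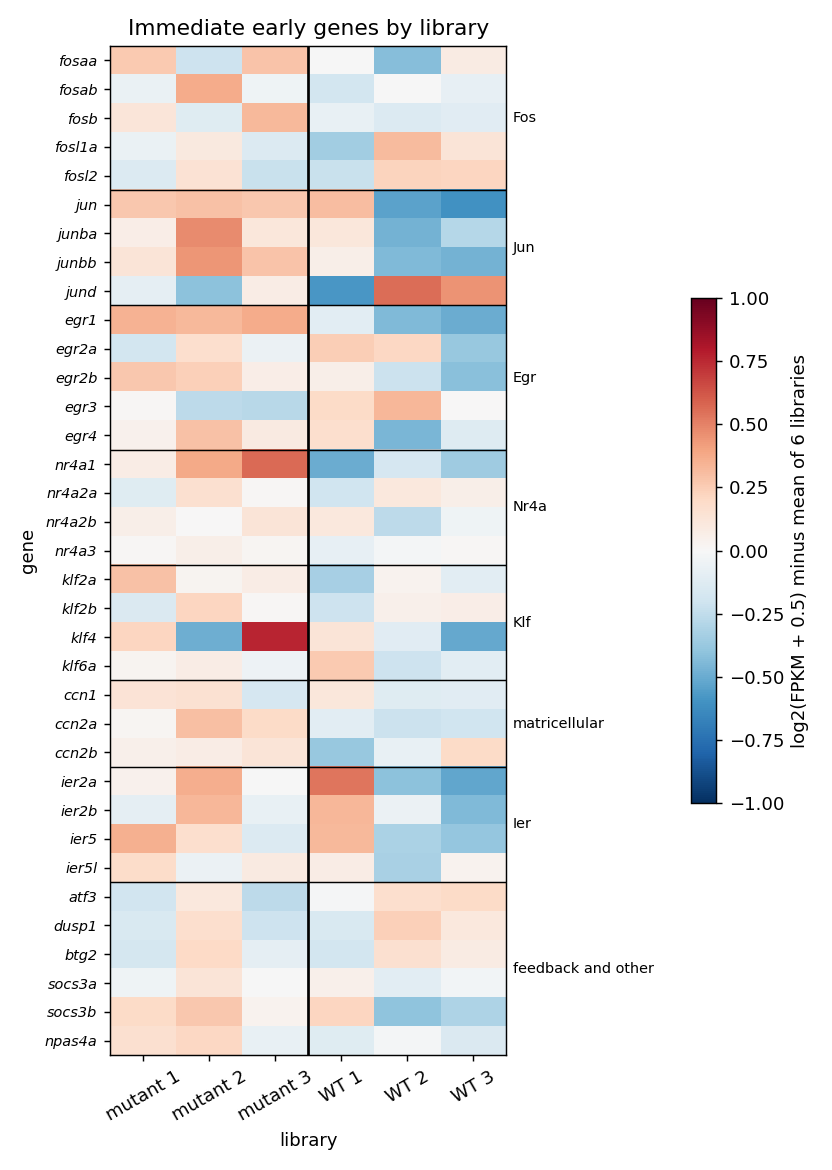
Level of each of the 35 immediate early genes (rows, grouped by class) in each library (columns), as log2(FPKM + 0.5) minus the mean of the 6 libraries. Red is above and blue below that mean. Wild-type libraries 2 and 3 are blue for jun, junba, junbb, egr1 and ier2a, while wild-type library 1 is red for jun and ier2a.

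The Fos proteins form AP-1 only as partners of Jun proteins or other leucine zipper proteins. Of the 5 Fos genes, 3 had higher means in mutants and 2 lower, with a median log2 fold change of 0.18. The most abundant was fosab (ENSDARG00000031683, GRCz11 chromosome 20, 46552311 to 46554440), the zebrafish gene often called c-fos, which stood at 16, 21.8 and 16.3 FPKM in mutant libraries 1, 2 and 3, against 14.7, 16.7 and 15.8 FPKM in wild-type libraries 1, 2 and 3. Mutant library 2 was the high one, and the other mutant libraries lay within the wild-type range. Its log2 fold change was 0.18 (SE 0.16, adjusted p = 0.93 in limma). Its paralogue fosaa stood at 2.97, 2.01 and 3.03 FPKM in mutant libraries 1, 2 and 3, against 2.39, 1.65 and 2.56 FPKM in wild-type libraries 1, 2 and 3, so the groups overlapped, with a log2 fold change of 0.23 (SE 0.22, adjusted p = 0.93 in limma). The less abundant fosb, whose mammalian product also acts in AP-1, averaged 0.773 ± 0.194 FPKM in mutants and 0.589 ± 0.0221 FPKM in wild type (SD, n = 3 each). The Fos-related genes fosl1a and fosl2 had lower means in mutants. The averages were 1.42 ± 0.161 FPKM in mutants and 1.54 ± 0.458 FPKM in wild type for fosl1a, and 7.22 ± 1.04 FPKM in mutants and 8.09 ± 1.45 FPKM in wild type for fosl2 (SD, n = 3 each). The genotypes overlapped for each of the 5 Fos genes.

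Jun proteins bind DNA as AP-1 with Fos partners or with each other. The 4 Jun genes gave the highest class median, a log2 fold change of 0.49, with jun, junba and junbb higher in mutants by mean and jund lower. The highest gene of the set, jun (ENSDARG00000043531, GRCz11 chromosome 20, 15552657 to 15554606), stood at 58.2, 59.2 and 58 FPKM in mutant libraries 1, 2 and 3, against 59.8, 33 and 31.5 FPKM in wild-type libraries 1, 2 and 3. The 3 mutant libraries and wild-type library 1 were all close to 60 FPKM, and wild-type libraries 2 and 3 alone were low. Its log2 fold change was 0.55 (SE 0.24, adjusted p = 0.867 in limma), and without wild-type library 1 it was 0.85. For junbb (ENSDARG00000104773, GRCz11 chromosome 3, 7654655 to 7656059), whose counterpart in mammals can restrain as well as form AP-1, the levels were 36.4, 45.3 and 40.8 FPKM in mutant libraries 1, 2 and 3, against 34.7, 24.4 and 23.8 FPKM in wild-type libraries 1, 2 and 3. The groups did not overlap, but mutant library 1 and wild-type library 1 were close to each other. Its log2 fold change was 0.57 (SE 0.18, adjusted p = 0.775 in limma), with a 95% interval of 0.16 to 0.98. Its paralogue junba stood at 10.9, 14.5 and 11.2 FPKM in mutant libraries 1, 2 and 3, against 11.2, 7.3 and 8.39 FPKM in wild-type libraries 1, 2 and 3, with wild-type library 1 inside the mutant range. The log2 fold change of junba was 0.43 (SE 0.19, adjusted p = 0.868 in limma). In contrast, jund, which in mammals many resting cells already express, stood at 9.06, 7.15 and 10.2 FPKM in mutant libraries 1, 2 and 3, against 6.31, 14.5 and 13.4 FPKM in wild-type libraries 1, 2 and 3. Wild-type libraries 2 and 3 were high here, and wild-type library 1 was the lowest of all, so the log2 fold change of -0.28 (SE 0.30) became -0.65 without that library.

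**Figure D2:**
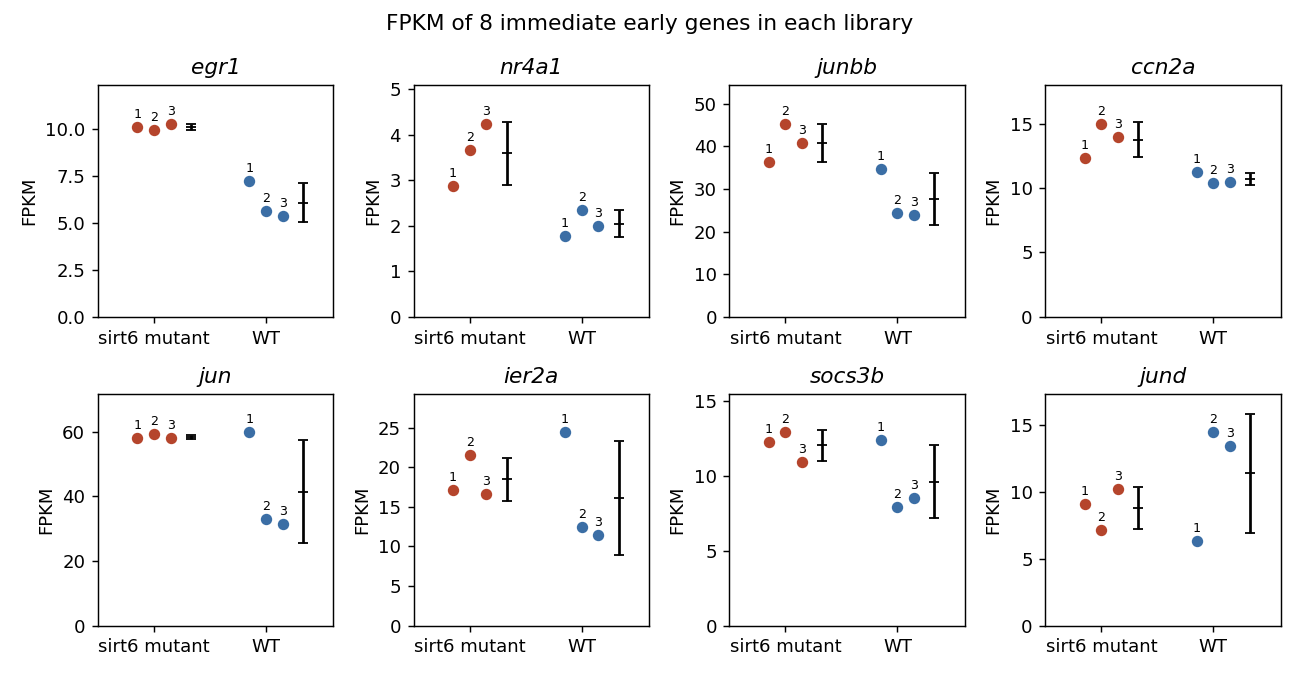
FPKM of 8 immediate early genes in each library, with mutants left of wild type. Points are libraries with their number, and the bar beside them is the mean with the SD (n = 3 each). The upper 4 genes do not overlap between genotypes, and in jun, ier2a and socs3b wild-type library 1 lies with or above the mutants. The genes were picked after their values were seen.

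Egr proteins are zinc finger transcription factors that follow growth factor and synaptic signals. Of the 5 Egr genes 3 had higher means in mutants, with a class median log2 fold change of 0.28. The smallest p of all 35 genes was that of egr1 (ENSDARG00000037421, GRCz11 chromosome 14, 21332522 to 21336385), which stood at 10.1, 9.95 and 10.3 FPKM in mutant libraries 1, 2 and 3, against 7.26, 5.64 and 5.4 FPKM in wild-type libraries 1, 2 and 3. The mutant libraries lay close together, and all wild-type libraries were lower. Its log2 fold change was 0.70 (SE 0.15, adjusted p = 0.566 in limma), with a 95% interval of 0.35 to 1.05 and rank 78 by p among all genes tested. Also without overlap was egr2b, known for its part in hindbrain segments and myelinating glia, at 3.59, 3.5 and 3.07 FPKM in mutant libraries 1, 2 and 3, against 3.05, 2.42 and 2.05 FPKM in wild-type libraries 1, 2 and 3. Here mutant library 3 and wild-type library 1 all but met, and the log2 fold change was 0.38 (SE 0.18, adjusted p = 0.889 in limma). The most abundant Egr gene, egr4, stood at 9.5, 11.4 and 9.82 FPKM in mutant libraries 1, 2 and 3, against 10.4, 6.59 and 8.37 FPKM in wild-type libraries 1, 2 and 3, so wild-type library 1 lay inside the mutant range, and it had a log2 fold change of 0.28 (SE 0.18, adjusted p = 0.925 in limma). That became 0.12 without wild-type library 2 and 0.43 without wild-type library 1. The other Egr genes had lower means in mutants, egr3 at 2.1 ± 0.303 FPKM in mutants and 2.81 ± 0.376 FPKM in wild type and egr2a at 0.969 ± 0.183 FPKM in mutants and 1.04 ± 0.346 FPKM in wild type (SD, n = 3 each). The Egr genes thus did not share a direction by mean.

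Nr4a proteins are nuclear receptors without a known natural ligand, whose activity follows their level. All 4 Nr4a genes had higher means in mutants, with a class median log2 fold change of 0.09, and the size of the difference varied. For nr4a1 (ENSDARG00000000796, GRCz11 chromosome 23, 32149269 to 32194397), known in mammals as Nur77, the levels were 2.88, 3.66 and 4.25 FPKM in mutant libraries 1, 2 and 3, against 1.77, 2.36 and 2 FPKM in wild-type libraries 1, 2 and 3. Every mutant library was above every wild-type library, and wild-type library 1 was the lowest of the 6. The log2 fold change was 0.68 (SE 0.19, adjusted p = 0.775 in limma), with a 95% interval of 0.23 to 1.13. Its 3 relatives had smaller log2 fold changes, and whether they differed from nr4a1 in this was not tested. The level of nr4a2b was 6.12, 5.84 and 6.44 FPKM in mutant libraries 1, 2 and 3, against 6.34, 4.8 and 5.66 FPKM in wild-type libraries 1, 2 and 3, with a log2 fold change of 0.13 (SE 0.15, adjusted p = 0.947 in limma). The paralogue nr4a2a, of like level, stood at 5.57, 6.88 and 6.16 FPKM in mutant libraries 1, 2 and 3, against 5.26, 6.62 and 6.38 FPKM in wild-type libraries 1, 2 and 3, with a log2 fold change of 0.03 (SE 0.16). The libraries of nr4a3 did not overlap, but mutant library 1 and wild-type library 3 were all but equal, and its averages were 4.11 ± 0.0855 FPKM in mutants and 3.92 ± 0.15 FPKM in wild type (SD, n = 3 each), a log2 fold change of 0.06.

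Klf proteins are zinc finger factors that act in epithelia, endothelium and blood, and klf2a is known in zebrafish as a gene that responds to blood flow. All 4 Klf genes had higher means in mutants, with a median log2 fold change of 0.16, and the genotypes overlapped for each. The endothelial gene klf2a stood at 2.24, 1.78 and 1.86 FPKM in mutant libraries 1, 2 and 3, against 1.28, 1.79 and 1.58 FPKM in wild-type libraries 1, 2 and 3, with a log2 fold change of 0.27 (SE 0.19, adjusted p = 0.927 in limma). The klf4 gene, a regulator of epithelial differentiation, varied widely among mutant libraries, at 2.77, 1.51 and 4.28 FPKM in mutant libraries 1, 2 and 3, against 2.57, 2.11 and 1.47 FPKM in wild-type libraries 1, 2 and 3. Mutant libraries 2 and 3 held nearly the lowest and the highest level of the 6, from 22 to 74 reads per library, and the log2 fold change was 0.33 (SE 0.33, adjusted p = 0.934 in limma), which became 0.03 without mutant library 3 and 0.66 without mutant library 2. The abundant klf6a stood at 35.1, 36.3 and 33.3 FPKM in mutant libraries 1, 2 and 3, against 41.5, 29.8 and 32 FPKM in wild-type libraries 1, 2 and 3, and wild-type library 1 was the highest. Its log2 fold change was 0.03 (SE 0.15). For klf2b the averages were 9.06 ± 1.19 FPKM in mutants and 8.66 ± 0.938 FPKM in wild type (SD, n = 3 each).

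The matricellular genes encode secreted proteins of the Ccn family, which bind integrins and matrix and are well-known targets of Yap and Srf. All 3 had higher means in mutants, with a median log2 fold change of 0.17. The connective tissue growth factor gene ccn2a (ENSDARG00000042934, GRCz11 chromosome 20, 25340814 to 25343490) stood at 12.3, 15 and 13.9 FPKM in mutant libraries 1, 2 and 3, against 11.2, 10.4 and 10.5 FPKM in wild-type libraries 1, 2 and 3. The groups did not overlap, and the wild-type libraries lay close together, library 1 included. Its log2 fold change was 0.34 (SE 0.13, adjusted p = 0.838 in limma), with a 95% interval of 0.04 to 0.65. The paralogue ccn2b stood at 7.24, 7.34 and 7.66 FPKM in mutant libraries 1, 2 and 3, against 5.25, 6.6 and 8.03 FPKM in wild-type libraries 1, 2 and 3, with overlap, and had a log2 fold change of 0.17 (SE 0.17, adjusted p = 0.938 in limma). The third gene, ccn1, averaged 7.72 ± 0.981 FPKM in mutants and 7.25 ± 0.726 FPKM in wild type (SD, n = 3 each). In each library the median deviation of the class from the mean of all libraries was 0.05, 0.15 and 0.13 in mutant libraries 1, 2 and 3, against -0.10, -0.12 and -0.12 in wild-type libraries 1, 2 and 3, so the libraries of the genotypes were apart in this measure. Gene by gene only ccn2a was apart.

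Ier genes encode small proteins induced early after a growth signal. All 4 had higher means in mutants, with a median log2 fold change of 0.20, but wild-type library 1 was above both other wild-type libraries for all 4. The level of ier2a was 17.2, 21.6 and 16.6 FPKM in mutant libraries 1, 2 and 3, against 24.4, 12.4 and 11.5 FPKM in wild-type libraries 1, 2 and 3. Wild-type library 1 was the highest of the 6, followed by mutant library 2, and the log2 fold change was 0.26 (SE 0.28, adjusted p = 0.938 in limma). It became 0.07 without wild-type library 3 and 0.60 without wild-type library 1. Its paralogue ier2b stood at 17.4, 23.6 and 17.6 FPKM in mutant libraries 1, 2 and 3, against 23.6, 17.8 and 13.6 FPKM in wild-type libraries 1, 2 and 3, where wild-type library 1 and mutant library 2 were the high ones, with a log2 fold change of 0.11 (SE 0.22, adjusted p = 0.967 in limma). For ier5 the levels were 1.93, 1.63 and 1.23 FPKM in mutant libraries 1, 2 and 3, against 1.88, 1.02 and 0.949 FPKM in wild-type libraries 1, 2 and 3, with a log2 fold change of 0.26 (SE 0.26, adjusted p = 0.936 in limma) and as few as 18 reads in a library. The last gene, ier5l, averaged 1.31 ± 0.15 FPKM in mutants and 1.15 ± 0.239 FPKM in wild type (SD, n = 3 each).

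The remaining 6 genes mostly limit signalling or growth, and 3 had higher and 3 lower means in mutants, with a median log2 fold change of 0.01. The cytokine inhibitor gene socs3b, which dampens Jak and Stat signals, stood at 12.3, 12.9 and 11 FPKM in mutant libraries 1, 2 and 3, against 12.4, 7.96 and 8.54 FPKM in wild-type libraries 1, 2 and 3. Wild-type libraries 2 and 3 were low and library 1 was among the mutants. The log2 fold change of socs3b was 0.33 (SE 0.19, adjusted p = 0.908 in limma). Its paralogue socs3a varied little, at 12.7 ± 0.869 FPKM in mutants and 12.2 ± 0.686 FPKM in wild type (SD, n = 3 each). The stress-induced factor gene atf3 stood at 6.26, 7.8 and 5.93 FPKM in mutant libraries 1, 2 and 3, against 7.14, 8.17 and 8.28 FPKM in wild-type libraries 1, 2 and 3. Mutant libraries 1 and 3 were below all wild-type libraries and mutant library 2 was not, and the log2 fold change was -0.23 (SE 0.16, adjusted p = 0.925 in limma). The antiproliferative gene btg2 stood at 30.2, 39.1 and 32 FPKM in mutant libraries 1, 2 and 3, against 30.03, 38.2 and 36.1 FPKM in wild-type libraries 1, 2 and 3, with overlap and a log2 fold change of -0.04 (SE 0.16). The phosphatase gene dusp1, which switches off MAP kinases, averaged 31.7 ± 4.68 FPKM in mutants and 34.6 ± 4.74 FPKM in wild type, and npas4a, a factor induced by neuronal activity in mammals, averaged 7.85 ± 0.855 FPKM in mutants and 6.78 ± 0.337 FPKM in wild type (SD, n = 3 each).

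**Figure D3:**
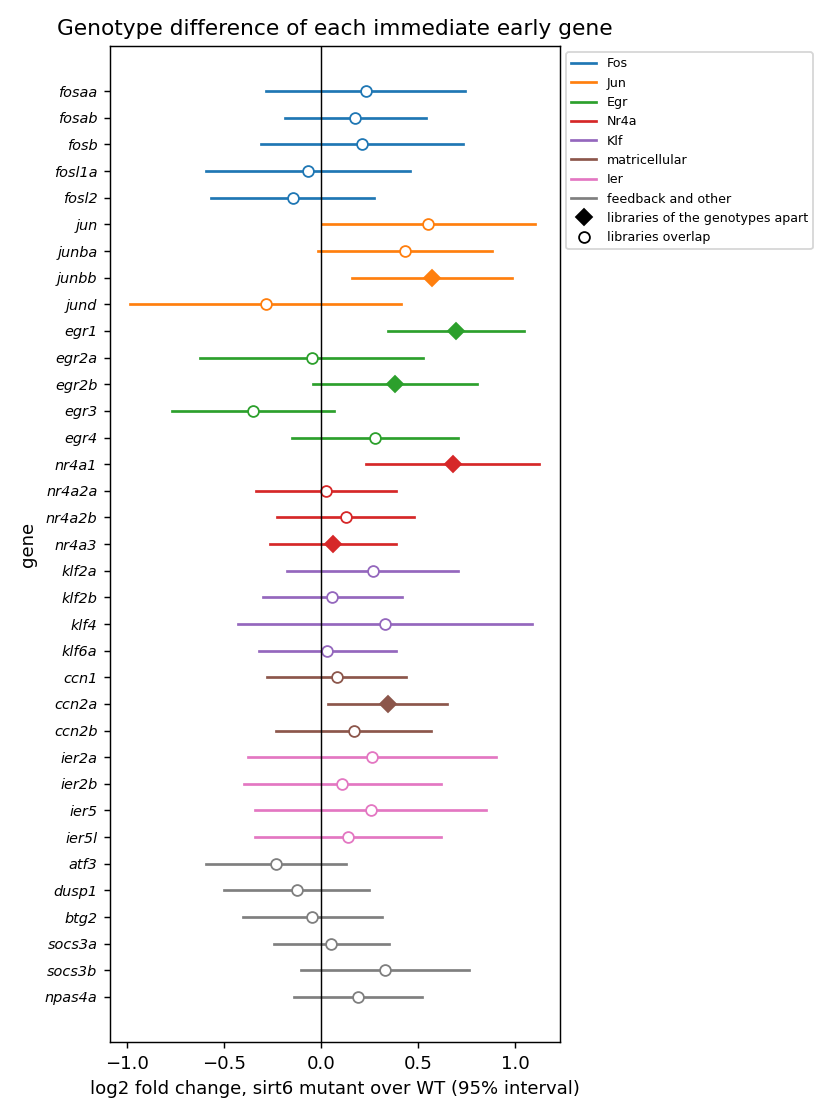
Log2 fold change of each gene, sirt6 mutant over wild type, with the 95% interval from limma. Filled diamonds mark the 6 genes whose libraries do not overlap between genotypes, and open circles mark the others. The intervals of egr1, nr4a1, junbb, ccn2a and jun lie above 0, before adjustment for the 23855 genes tested.

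Zebrafish keep pairs of several of these genes from a genome duplication, and 8 such pairs were in the set. Levels within a pair could differ widely, with fosaa at 0.144 times the level of fosab and klf2a at 0.198 times that of klf2b in the mean of all libraries, whereas nr4a2a and nr4a2b (1.05 times) and ier2a and ier2b (0.913 times) were alike. In the egr2 pair the log2 ratio of egr2a to egr2b was -1.64 to -1.26 in mutant libraries and -1.16 to -0.77 in wild-type libraries, without overlap. In the other 7 pairs the ratios overlapped between genotypes. For junba and junbb the log2 fold changes were 0.43 and 0.57, and for socs3a and socs3b they were 0.05 and 0.33. A two-sided exact permutation test of the log2 ratio between genotypes was run on all 8 pairs. Its lowest p was 0.1, for the egr2 pair, which is the smallest that 3 libraries against 3 can give, and Benjamini-Hochberg adjustment over the 8 pairs made it 0.667. The other pairs gave exact p from 0.2 to 0.8. Since no exact p here can be under 0.1, no pair could have passed at 0.05. The test therefore cannot decide whether the responses of paralogues differed.

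Across the whole table wild-type library 1 was nearer to each mutant library than to wild-type libraries 2 and 3, by chi-square per gene. Among the immediate early genes its position differed between classes. In Jun genes the median deviation from the mean of all libraries was 0.10, 0.37 and 0.19 in mutant libraries 1, 2 and 3, against 0.09, -0.46 and -0.38 in wild-type libraries 1, 2 and 3. In Egr genes it was 0.04, 0.24 and 0.07 in mutant libraries 1, 2 and 3, against 0.17, -0.22 and -0.38 in wild-type libraries 1, 2 and 3. In Ier genes it was 0.11, 0.25 and -0.04 in mutant libraries 1, 2 and 3, against 0.33, -0.32 and -0.42 in wild-type libraries 1, 2 and 3. In all 3 classes wild-type library 1 lay near or among the mutants or above them, and far from wild-type libraries 2 and 3. In Nr4a genes, by contrast, the median deviation was 0.04, 0.11 and 0.07 in mutant libraries 1, 2 and 3, against -0.14, -0.09 and -0.02 in wild-type libraries 1, 2 and 3, with wild-type library 1 the lowest. For Fos genes it ranged over -0.06 to 0.10 in mutants and -0.18 to 0.08 in wild type, with overlap. For Klf genes it ranged over 0.05 to 0.12 in mutants and -0.11 to -0.04 in wild type, without overlap, although each Klf gene overlapped by itself. Jun and Nr4a genes were apart in this measure too, Jun genes only just. Of the related and marker lists described below, only the neutrophil and notochord genes parted in this measure. How often gene sets of like size from the whole table part in this way was not tested.

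**Figure D4:**
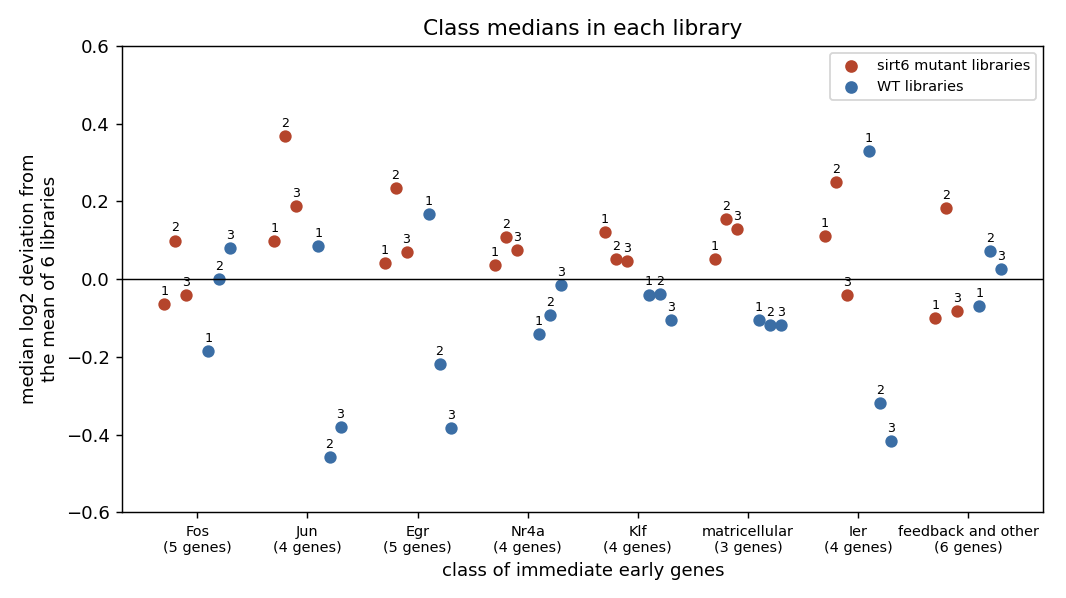
Median deviation of each class of immediate early genes from the mean of the 6 libraries, on the log2 scale, for each library (numbered points, mutants left of wild type within a class). Wild-type library 1 lies just under the mutants in Jun genes, among them in Egr genes and above them in Ier genes, and below them in Fos, Nr4a, Klf and matricellular genes.

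Gene by gene, wild-type libraries 2 and 3 were both below all 3 mutant libraries for 14 of the 35 genes, against 18.5% of all genes tested, and both above them for 4, against 20.3%. For 8 of those 14, namely egr4, ier2a, ier5, jun, junba, klf6a, nr4a2b and socs3b, wild-type library 1 was not below all the mutants. Of all 23855 genes tested, 4421 had wild-type libraries 2 and 3 both below the mutants. In 3190 of these 4421, which are 13.4% of all genes tested, wild-type library 1 was not below all the mutants. Mutant library 2 was above the other mutant libraries for 22 genes, against 44.5% of all genes tested. With wild-type library 1 and mutant library 2 both left out, 6 genes passed limma as higher, jun, junba, junbb, egr1, ier2a and socs3b, and 5 as lower, fosl2, jund, atf3, dusp1 and btg2. In that fit 9.15% of all genes tested passed as higher and 9.42% as lower, and the limma adjusted p of egr1 was 0.00833, in a range of 0.00833 to 1 over the alternatives. The libraries that remain there are the close pairs, so genotype and pair cannot be told apart. With library weights, which were lowest for the same pair of libraries, 7 of the 35 genes passed as higher and 4 as lower, against 9.62% and 10.7% of all genes tested.

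Wild-type library 1 and mutant library 2 also carried more reads of short genes. In genes of 1000 to 2000 bases, which hold 12 of the 35, the median deviation was 0.09 in mutant library 2 and -0.05 to -0.02 in the other mutant libraries, against 0.09 in wild-type library 1 and -0.05 to -0.04 in the other wild-type libraries. With the medians of 20 bins of gene length set equal across libraries, the median log2 fold change of the set was 0.161, egr1 stood at 0.68, nr4a1 at 0.68, junbb at 0.54 and ccn2a at 0.36, and 26 of the 35 were higher in mutants.

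No regulator upstream of these genes passed, and neither did any other of the 23855 genes tested. Srf, its Elk and Mrtf partners, Creb and its coactivators, the MAP kinases, Stat3 and the Yap and Tead factors made up 36 genes, of which 33 were tested, 19 had higher means in mutants and 0 passed, with a median log2 fold change of 0.04. None had an unadjusted p under 0.05 in limma, against 2.45% of all genes tested as higher and 3.28% as lower. In this list mutant library 2 was low, with a median deviation of -0.30, beside 0.18 and 0.21 in mutant libraries 1 and 3. Wild-type libraries 1, 2 and 3 had -0.07, -0.01 and 0.07. The median log2 SD was 0.37 in mutants and 0.20 in wild type. If mutant library 2 was dropped, the median log2 fold change became 0.18, with 26 of 33 genes higher. Dropping mutant library 1 or 3 instead gave -0.05 or -0.07. A lack of small p thus does not show unchanged genes. The genes of smallest p were mrtfab, an Srf coactivator, at 1.8, 1.94 and 2.33 FPKM in mutant libraries 1, 2 and 3, against 2.21, 3.24 and 2.51 FPKM in wild-type libraries 1, 2 and 3, and the p38 kinase gene mapk14a, at 9.05, 11.5 and 9.98 FPKM in mutant libraries 1, 2 and 3, against 9.92, 7.34 and 8.08 FPKM in wild-type libraries 1, 2 and 3. Both overlapped between genotypes.

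Of 46 other genes known to be induced early, 41 were tested, 23 had higher means in mutants and 0 passed (median log2 fold change 0.02). Of the 41, 4 were higher in every mutant library than in any wild-type library and 2 were lower, against 5.16% and 5.4% of all genes tested. In this list spry1, an inhibitor of receptor tyrosine kinase signals, stood at 11, 8.55 and 11.4 FPKM in mutant libraries 1, 2 and 3, against 8.04, 6 and 4.68 FPKM in wild-type libraries 1, 2 and 3, and was among those 4. The log2 fold change of spry1 was 0.70 (SE 0.21, adjusted p = 0.775 in limma). The prostaglandin synthase gene ptgs2b was among the 2 on the other side, at 6.56, 8.33 and 6.9 FPKM in mutant libraries 1, 2 and 3, against 10.3, 9.46 and 10.3 FPKM in wild-type libraries 1, 2 and 3, with a log2 fold change of -0.44 (SE 0.14, adjusted p = 0.775 in limma). Relatives of the Klf and Ccn genes were evenly split, with 10 of 20 tested genes higher and 0 passing. In every mutant library 3 of the 20, ccn6 and klf17 included, were higher and 1 was lower than in any wild-type library. Among them ccn6 averaged 8.76 ± 1.16 FPKM in mutants and 6.1 ± 0.997 FPKM in wild type and klf17 4.2 ± 0.184 FPKM in mutants and 3.34 ± 0.303 FPKM in wild type (SD, n = 3 each). Other targets of Yap and Srf were also split, with 9 of 18 higher and 0 passing, and tagln2 and ankrd1b, which encode an actin-binding protein and an ankyrin repeat protein, averaged 22.5 ± 2.04 FPKM in mutants and 27.9 ± 2.19 FPKM in wild type, and 88.5 ± 14.9 FPKM in mutants and 106 ± 6.39 FPKM in wild type (SD, n = 3 each). Of the 18 only tagln2 was apart between genotypes, lower in every mutant library.

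Heat shock and stress genes code mainly for chaperones and for proteins made under stress. Of 21 such genes 19 were tested, 12 had higher means in mutants and 0 passed, with a median log2 fold change of 0.05, while atf4b and chac1 are listed at 0 in every library. The stress-induced gene sesn2 stood at 4.28, 4.05 and 4.31 FPKM in mutant libraries 1, 2 and 3, against 3.71, 2.08 and 1.96 FPKM in wild-type libraries 1, 2 and 3. The constitutive chaperone gene hspa8 stood at 21.3, 25.5 and 21.2 FPKM in mutant libraries 1, 2 and 3, against 15.2, 17.5 and 18.4 FPKM in wild-type libraries 1, 2 and 3. Both were higher in every mutant library than in any wild-type library, against 5.16% of all genes tested. In the other direction hsp70.2 was lower in every mutant library (log2 fold change -0.41), against 5.4% of all genes tested. The genotypes overlapped for hsp70.1 (-0.50), hspb8 (-0.37) and hsp70l (-0.25), and 7 of the 19 tested genes had lower means in mutants. The median deviation of the list was -0.03, 0.13 and -0.04 in mutant libraries 1, 2 and 3, against 0.22, -0.13 and -0.13 in wild-type libraries 1, 2 and 3. Wild-type library 1 was above both other wild-type libraries for 16 of the 19 stress genes and for 19 of the 35 immediate early genes, against 41.5% of all genes tested. The part of stress genes in the differences between libraries was not tested.

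Levels of cell type markers varied between the libraries as well. The summed levels of fibroblast, notochord, and retina and lens genes were higher in every mutant library than in any wild-type library, and those of the other lists overlapped. Of 12 skeletal muscle genes 11 were tested, 5 were higher in mutants by mean, and the summed level was 32279 to 45008 FPKM in mutant libraries and 33438 to 50532 FPKM in wild-type libraries, with wild-type library 1 the highest. For 12 skin genes, of which 10 were tested and 4 higher, it was 4061 to 5100.5 FPKM in mutant libraries and 3867 to 4491 FPKM in wild-type libraries, with mutant library 2 the highest. Neuronal genes (10 tested, 2 higher) summed to 506 to 567 FPKM in mutant libraries and 564 to 577 FPKM in wild-type libraries, and endothelial genes (12 tested, 7 higher) to 56.3 to 58.8 FPKM in mutant libraries and 55.9 to 58.7 FPKM in wild-type libraries. Genes of the neutrophil list (6 in the table, 5 tested, 5 higher) summed to 339 to 439 FPKM in mutant libraries and 308 to 399 FPKM in wild-type libraries. Most of that sum was the protease gene cpa5, whose log2 fold change was 0.01. Its mean over the 6 libraries was 311 FPKM, beside 15.4 for mpx and 20.2 for npsn. Whether neutrophils were the source of cpa5 was not tested. The other 4 tested, mpx, npsn, mmp9 and srgn, were each higher in every mutant library than in any wild-type library, against 5.16% of all genes tested. For npsn the levels were 26.9, 27.9 and 25.1 FPKM in mutant libraries 1, 2 and 3, against 13.1, 14.4 and 13.6 FPKM in wild-type libraries 1, 2 and 3, with a log2 fold change of 0.93 (SE 0.12, adjusted p = 0.183 in limma). The peroxidase gene mpx had a log2 fold change of 0.77 (SE 0.12, adjusted p = 0.242 in limma), srgn one of 1.04 (SE 0.19, adjusted p = 0.406 in limma) and mmp9 one of 0.46 (SE 0.16, adjusted p = 0.798 in limma). The median deviation of the neutrophil genes from their mean was 0.33, 0.44 and 0.17 in mutant libraries 1, 2 and 3, against -0.40, -0.35 and -0.41 in wild-type libraries 1, 2 and 3, on the log2 scale. The sixth, lyz, was too low to be tested, at 0.249, 0.365 and 0.224 FPKM in mutant libraries 1, 2 and 3, against 0.83, 0.96 and 0 FPKM in wild-type libraries 1, 2 and 3. Thus 4 of the 5 tested genes of this list separated by genotype, although the sum, which was mostly cpa5, did not. The median log2 fold change of the 5 was 0.77, beside 0.17 for the 35 immediate early genes, and none of the 5 passed the adjusted test. Macrophage genes (6 tested, 3 higher) summed to 25.1 to 28.5 FPKM in mutant libraries and 25.1 to 29.1 FPKM in wild-type libraries. Of these spi1b and mrc1b were lower in every mutant library than in any wild-type library (log2 fold changes -0.43 and -0.46). In contrast, mpeg1.2 was higher in every mutant library (0.28). The related gene mpeg1.1 was too low to be tested, with 4 to 20 reads per library, and was lower in every mutant library. Its levels were 0.228, 0.111 and 0.18 FPKM in mutant libraries 1, 2 and 3, against 0.543, 0.302 and 0.356 FPKM in wild-type libraries 1, 2 and 3. Erythroid genes (5 tested, 2 higher, with alas2 listed at 0 in every library) summed to 299 to 422 FPKM in mutant libraries and 231 to 386 FPKM in wild-type libraries. Among them hmbsb (-0.62) and slc4a1a (-0.21) were lower in every mutant library, and hbbe2 (1.47) overlapped. Of all genes tested 5.4% were lower in every mutant library and 5.16% higher. Fibroblast genes (8 tested, 6 higher) summed to 759 to 834 FPKM in mutant libraries and 689 to 751 FPKM in wild-type libraries. Much of that sum was col1a2, with a mean of 342 FPKM over the 6 libraries. Only col1a2 of the 8 was apart between genotypes, and dcn and lum had lower means in mutants. The median deviation of the list overlapped between genotypes. Notochord genes (3 tested, 3 higher, with col8a1a listed at 0 in every library) summed to 229.9 to 238 FPKM in mutant libraries and 171 to 203 FPKM in wild-type libraries. Of the 3 tested, 2 were higher in every mutant library, and col9a1a overlapped. Retina and lens genes had 7 of 12 higher means and 5 lower, with log2 fold changes from -0.30 to 1.21. Their sums only just parted, at 2097 FPKM in the lowest mutant library and 2094 FPKM in the highest wild-type library. Of the 12 the 5 genes of rod photoreceptors, rho, gnat1, saga, rom1b and grk1a, were higher in every mutant library than in any wild-type library. Of all genes tested 5.16% were so, and the 5 rod genes had log2 fold changes of 0.52 to 1.21. The rod arrestin gene saga stood at 14.6, 15.4 and 14.4 FPKM in mutant libraries 1, 2 and 3, against 5.98, 5.97 and 6.33 FPKM in wild-type libraries 1, 2 and 3, with a log2 fold change of 1.21 (SE 0.12, adjusted p = 0.128 in limma). The cone genes opn1mw1, opn1sw1 and gnat2 overlapped, with log2 fold changes of 0.01, -0.07 and -0.12. The rest of the list, cryaa, crygm2d1, crybb1 and vsx1, overlapped as well. The grouping into rod and cone genes was made after their values were seen, and the difference between them was not tested. Genes fixed as marks of the head, egr2b among them, had 7 of 9 higher means and summed to 71.9 to 85.6 FPKM in mutant libraries and 66.6 to 77.1 FPKM in wild-type libraries. Of the 9 tested, 3 were higher in every mutant library, egr2b included, and 0 were lower. Of the 8 Hox genes of the tail, 2 were lower in every mutant library and 0 were higher, with a median log2 fold change of -0.18. The shares over all genes tested were 5.16% higher and 5.4% lower. The part of cell makeup in the differences of immediate early genes was not tested.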

How the data were processed

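Larvae were genotyped, tail RNA was extracted with TRIzol and poly-A libraries were built with Novogene reagents, per the labels' protocols. The tools that the submitters' processing notes name are FastQC, HISAT2 2.0.5, featureCounts and DESeq2, with GRCz11 as the build. The authors deposited FPKM values with gene lengths and positions. No source used here states the annotation release, strand setting or filters, so reads of genes that overlap on opposite strands may be mixed. Multiplied by gene length, 100% of the values above 0 were whole multiples of 1 unit per library (tolerance 1e-06), which gave recovered reads.

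limma 3.58.1 in R 4.3.3 was run on log2(FPKM + 0.5) with a variance trend, for the 23855 genes whose mean reached 0.5 FPKM, two-sided, with Benjamini-Hochberg adjustment over all of them and a threshold of 0.05. The added 0.5 understates changes of low genes. The fit was tested on simulated data. The labels do not say that libraries came from separate pools of larvae, so p-values measure the spread between these libraries, which may be technical.

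The genes, classes, related lists, markers and alternatives were chosen with earlier results of these data known. Values in every library were given for the 2 genes of smallest p and the most abundant gene of each class, for jund and junba, chosen after their values were seen, and, in related lists, for the 2 genes of smallest p or their means. Among markers they were given for npsn, saga, lyz and mpeg1.1, which were picked by no rule set beforehand. No protein or promoter sequence was used here.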

Additional observations from a re-analysis of the deposited data

How the results depend on the processing

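Over 19 alternatives the median log2 fold change of the 35 genes stayed between 0.109, without wild-type library 2, and 0.192, with limma voom on recovered reads, and 24 to 29 genes had higher means in mutants (18 of 23 with a mean of 5 FPKM or more). No gene of the set passed in 17 alternatives, and 11 passed without wild-type library 1 and mutant library 2 and 11 with library weights. Over all genes, where 0 of 23855 passed and 1368 had an unadjusted p under 0.05, 4429 and 4849 passed in those fits, 2 with a mean of 5 FPKM or more and 2 with quantile normalization. The alternative with gene length bins was chosen after seeing the data.

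The Fos median was -0.0124 without both libraries, 0.00197 with weights and 0.0154 at the mean of 5 FPKM, where 2 of its genes are left, and leaving out each library gave 0.0352 to 0.18. The Klf median was 0.209 with weights, 0.206 with limma voom and 0.0465 at 5 FPKM, with a range of 0.0668 to 0.225 over libraries left out. The matricellular median was 0.101 without both libraries and 0.158 to 0.308 with each left out, and that of Klf and Ccn relatives was 0.0991 and -0.0998 to 0.0959. Without both libraries and with weights, genes passing numbered 5 and 6 of 33 upstream regulators and 5 and 6 of 41 other early genes. They numbered 3 and 4 of 20 Klf and Ccn relatives, 7 and 6 of 18 Yap and Srf targets and 6 and 8 of 19 stress genes. Of all genes tested 9.15% and 9.62% passed as higher in those fits, and 9.42% and 10.7% as lower.

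The sign of sirt6 turned without both libraries (0.182), and with weights (0.137), and the cause was not tested. Signs also turned for fosab (-0.0124) and nr4a2a (-0.137) without both libraries and for nr4a2a with weights (-0.147). With 1 library left out at a time the log2 fold change of 26 of the 35 genes moved by over 1.5 times, and that of junba, junbb, egr1, egr2b, egr3, nr4a1, ccn2a, atf3 and npas4a did not. It turned its sign for 7 genes, running from -0.256 to 0.0762 for fosl1a, -0.249 to 0.0644 for egr2a, -0.0661 to 0.0958 for nr4a2a, -0.0336 to 0.144 for klf2b, -0.0619 to 0.173 for klf6a, -0.082 to 0.306 for ier2b and -0.152 to 0.0319 for btg2, and for sirt6 it ran from -0.357 to 0.197.

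Deviations from the genotype mean correlated across genes at 0.0534, 0.012 and 0.106 between libraries of the same number. Between libraries of unlike number the correlations were -0.102 to 0.038. Deviations from a mean of 3 libraries are tied to each other, so these values do not show whether equal numbers share an origin. The labels do not give one. With the replicate number as a block the set had 0 genes passing and a median of 0.169, and 0 of all genes passed, with 1414 at an unadjusted p under 0.05. There were 3 libraries per genotype, and counting adds to the spread of the genes under 100 reads, by an amount that was not tested.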

Other observations

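The 35 genes lie on 19 chromosomes, and some are close to each other or to the targeted gene. On chromosome 2, klf2b and jund lie 2.46 and 2.92 megabases from sirt6 and 0.452 megabases apart. Their log2 fold changes were 0.06 and -0.28, with overlap between genotypes in both. The genes fosl1a and npas4a lie 0.0967 megabases apart on chromosome 14, with log2 fold changes of -0.07 and 0.19. On chromosome 23, egr4 and ccn1 lie 0.114 megabases apart, with log2 fold changes of 0.28 and 0.08.

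Spread within a genotype differed between classes. The median SD on the log2 scale was 0.19 in mutants and 0.40 in wild type for Jun genes, and 0.22 in mutants and 0.39 in wild type for Ier genes. For Nr4a genes it was 0.10 in mutants and 0.16 in wild type. Over all genes tested it was 0.21 in mutants and 0.23 in wild type. The level of jun was 58.5 ± 0.654 FPKM in mutants and 41.4 ± 15.9 FPKM in wild type (SD, n = 3 each).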
